A study of Mus musculus with 49 samples.

Results

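Heat shock proteins, their DnaJ partners and the cytosolic chaperonin are the protein folding machinery of the cell, and 67 genes of these families were followed among the 11807 genes that the arrays named. A gene was taken where its symbol began with Hspa, Hspb, Hspd, Hspe, Hsph or Hsp90, with Dnaj, or with Cct and a digit, and a gene with several probe sets was read from the brightest of them, by its mean over the 49 arrays. The families held 11 genes of the HSP70 and HSP110 group, 2 of HSP90, 7 with the prefix Hspb, 4 of DnaJ class A, 11 of class B and 23 of class C, 8 of the CCT ring and Hspe1, the lid of the mitochondrial chaperonin. Hsp90ab1, Hspd1 and Hspa1a were not analysed here.

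The arrays measured RNA from the neuronal layers of CA1, CA3 and the dentate gyrus (DG), cut out of frozen, cresyl violet stained sections with a laser, in female mice aged 6.1 months. rTg4510 mice (6 mice) carried both the tTA transactivator, expressed from the Camk2a promoter of forebrain excitatory neurons, and a tTA-responsive transgene for mutant human tau, tTA mice (5 mice) carried the transactivator alone, and double-negative DN mice (6 mice) carried neither. All were littermates from a cross of the FVB/N tau line with the tTA line, which had another inbred background, and each array held 1 subfield of 1 mouse. CA1 had 5 rTg4510, 5 tTA and 6 DN arrays, CA3 had 6, 5 and 5, and DG had 6, 5 and 6. The comparison of rTg4510 with tTA mice, in which both groups carry the transactivator, asks what the tau transgene changes, and the comparison of tTA with DN mice asks what the transactivator changes. Mice with the tau transgene alone were not analysed here.

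HSP70 proteins bind exposed hydrophobic stretches of unfolded proteins in a cycle of ATP hydrolysis that DnaJ proteins start and nucleotide exchange factors, among them the HSP110 proteins, reset. HSP90 takes over partly folded clients, the CCT ring encloses actin, tubulin and other proteins, and small heat shock proteins hold unfolded proteins without ATP. Neurons use the same machinery for synaptic vesicle cycling and for the handling of tau, which HSP70, HSP90 and their partners bind.

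The promoters of these genes carry the binding letters of different stress responses, and the 250 bases before the RefSeq transcription start (GRCm38.p6) could be read for 55 of the 67 members. They are shown for Hspa5, Hsp90b1, Dnajc3 and Hspe1, on which results below turn and which hold a match to a stress element. The endoplasmic reticulum stress element was searched on both strands as CCAAT and CCACG with 9 bases between them, or the complement CGTGG and ATTGG with the same gap, and this motif was chosen after the expression values had been seen. It occurred in 37 of 32851 promoter windows (0.113%), and 3 members held it: Hspa5, Hsp90b1 with 2 matches and Dnajc3. The heat shock element of 3 alternating units, GAA, TTC and GAA or TTC, GAA and TTC, with 2 free bases between units, occurred in 153 windows (0.466%), among the members in Hspe1 and Dnajb6. In Hspe1 its 2 matches overlap. A shorter form of 2 units, GAANNTTC or TTCNNGAA, which every longer match contains, was in 12.8% of all windows and in 13 of the 55 members. Capitals mark the matches, and each sequence runs 5′ to 3′ along the gene and ends at its start site.
Hspa5 promoter, chr2:34771840-34772089 (+ strand): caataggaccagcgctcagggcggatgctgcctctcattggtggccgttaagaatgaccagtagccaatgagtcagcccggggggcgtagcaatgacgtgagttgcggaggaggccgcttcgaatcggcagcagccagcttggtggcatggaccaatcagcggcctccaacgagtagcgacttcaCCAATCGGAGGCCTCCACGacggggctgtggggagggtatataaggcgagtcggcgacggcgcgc
Hsp90b1 promoter, chr10:86705445-86705694 (- strand): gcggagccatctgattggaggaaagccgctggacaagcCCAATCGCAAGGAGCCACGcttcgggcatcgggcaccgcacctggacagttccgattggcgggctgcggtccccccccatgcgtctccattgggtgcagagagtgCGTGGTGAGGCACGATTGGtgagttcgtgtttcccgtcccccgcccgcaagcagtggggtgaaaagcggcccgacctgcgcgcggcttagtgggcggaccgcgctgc
Dnajc3 promoter, chr14:118937682-118937931 (+ strand): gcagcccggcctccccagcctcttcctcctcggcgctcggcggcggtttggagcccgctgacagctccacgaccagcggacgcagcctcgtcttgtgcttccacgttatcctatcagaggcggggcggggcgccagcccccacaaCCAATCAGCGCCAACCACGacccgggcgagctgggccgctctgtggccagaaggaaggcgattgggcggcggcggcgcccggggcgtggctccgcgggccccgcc
Hspe1 promoter, chr1:55087898-55088147 (+ strand): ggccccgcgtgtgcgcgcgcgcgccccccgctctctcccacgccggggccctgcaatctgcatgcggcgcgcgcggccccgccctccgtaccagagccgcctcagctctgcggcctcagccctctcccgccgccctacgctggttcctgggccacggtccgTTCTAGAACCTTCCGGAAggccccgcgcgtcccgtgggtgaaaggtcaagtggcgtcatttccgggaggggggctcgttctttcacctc

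Values are RMA log2 signals, on which a difference of 1 is a doubling, and a gene was called where the limma p, adjusted over all 22626 probe sets, was below 0.05. Signals are compared between groups for 1 probe set, never between genes. Of the 67 members, 10 averaged below 5.04, the median over probe sets, and are called dim. Of those, 5 were among the 7 genes with the prefix Hspb. The layers carried their own markers: in DN mice the mean log2 value of the CA1 pyramidal markers was 9.12 to 9.41 in CA1, against 5.41 to 5.79 in CA3 and 6.28 to 6.66 in DG, the CA3 markers were highest in CA3 (7.66 to 8.01) and the granule cell markers in DG (7.39 to 7.85). Glial transcripts were also present and moved with genotype. In CA1 the mean log2 value of the 12 microglial markers was 6.82 to 7.84 in rTg4510 mice, 5.69 to 6.11 in tTA mice and 5.22 to 5.62 in DN mice, and that of the 9 astrocyte markers was 8.83 to 9.44, 7.61 to 8.31 and 7.36 to 7.84. The CA1 pyramidal markers had 6.40 to 8.03 in rTg4510 mice, 8.44 to 9.43 in tTA mice and 9.12 to 9.41 in DN mice. In captured tissue, fewer cells of a type and less RNA per cell cannot be told apart. The array of tTA mouse4592 in CA1 lay farthest from its group, and mouse numbers of DN mice (mouse4797 to mouse4886) lay apart from those of rTg4510 (mouse4535 to mouse4666) and tTA mice (mouse4570 to mouse4637), so that any difference in when they were bred or processed cannot be told apart from the DN genotype.

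Comparing rTg4510 with tTA mice, 5 members were higher and 3 were lower in CA1, which is 11.9% of the 67, against 10.6% of all probe sets called there (6.01% higher and 4.62% lower). In CA3, 2 members were higher and 0 were lower, where 1.13% of all probe sets passed the test (0.641% higher and 0.491% lower). In DG 1 member was higher and 0 were lower, where 0.782% of all probe sets passed the test (0.446% higher and 0.336% lower). The median difference of the members was −0.0048 in CA1, −0.0012 in CA3 and 0.0417 in DG, against −0.0314, −0.0167 and −0.00508 over all probe sets. Shares so near the background do not set the families apart, and the results lie in single genes.

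**Figure D1:**
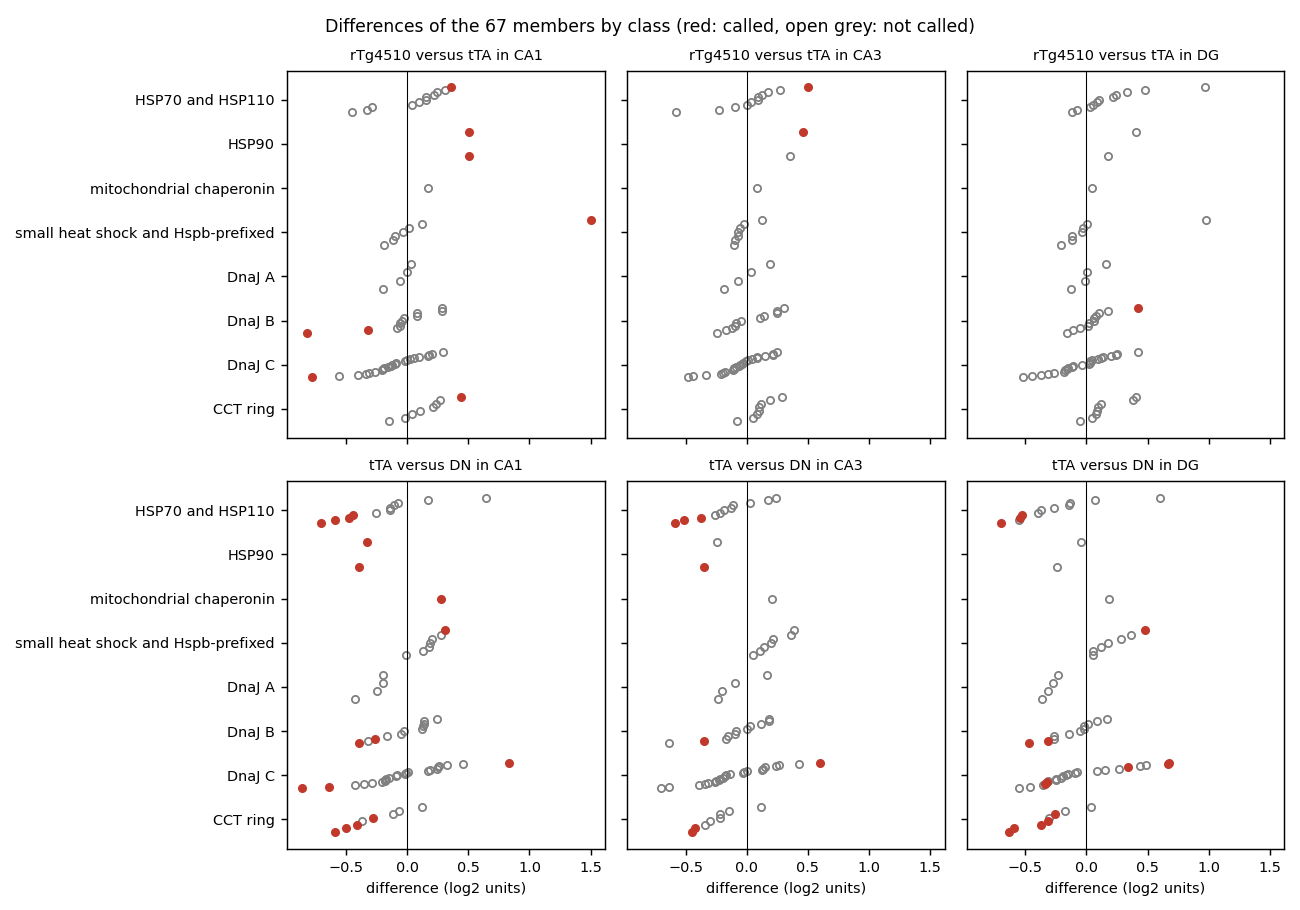
Log2 difference (horizontal axis) of each of the 67 members by family (vertical axis). The upper row holds rTg4510 against tTA mice and the lower row tTA against DN mice, with CA1, CA3 and DG as columns. Red points were called at an adjusted p below 0.05. Hspb8 stands at 1.5 in CA1 of the upper row, and in the lower row most CCT ring points lie left of 0.

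The plot of differences by family shows Hspb8 as the member farthest from 0 in rTg4510 mice. Hspb8 (chr5:116408491-116422864) encodes a small heat shock protein that works with Bag3 and HSP70 to send misfolded proteins to autophagy. Its log2 signals in CA1 were 5.13, 5.17, 6.82, 6.91 and 7.38 in rTg4510 mice, against 4.52, 4.70, 4.72, 4.78 and 5.19 in tTA mice. They were 4.44, 4.54 and 4.84 in DN mice (lowest, median and highest). Of the rTg4510 mice, 3 stood clear of all tTA mice and 2 overlapped with the highest of them. The difference was 1.5 (SE 0.35, adjusted p = 0.0113), and against DN mice it was 1.70 (SE 0.33, adjusted p = 0.00139). The means of tTA and DN mice lay below the dim bound, so no fold is given. The call against tTA mice was lost in a model of the 2 groups only (adjusted p = 0.0683) and in a test on anti-log values (adjusted p = 0.0656). In DG the signals were 4.97, 5.82 and 6.86 (lowest, median and highest) in rTg4510 mice, against 4.31, 4.56, 4.80, 4.88 and 5.35 in tTA mice and 4.15, 4.63 and 5.24 in DN mice. There the difference from DN mice was called (1.15, SE 0.28, adjusted p = 0.0135), while that from tTA mice was 0.98 with an adjusted p of 0.108. The DG call against DN mice was lost with the ratio of 3′ to 5′ Actb signal, a sign of RNA quality, in the model (0.97, adjusted p = 0.107) and on anti-log values (adjusted p = 0.079), and 2 other probe sets gave 0.104 and 0.109 there and were not called. In CA3 the rTg4510 values, 4.40, 5.02 and 5.53, overlapped with those of tTA mice (4.45 to 5.71), with a difference of −0.10.

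The rTg4510 minus tTA difference of Hspb8 was 1.59 larger in CA1 than in CA3 (SE 0.42, adjusted p = 0.0217), in a comparison where 1 member was higher, 1 was lower and 3.88% of all probe sets passed the test (2.19% higher and 1.69% lower). Without rTg4510 mouse4535 this was 1.22 (adjusted p = 0.101), without rTg4510 mouse4653 it was 1.43 (adjusted p = 0.0833) and without tTA mouse4637 it was 1.42 (adjusted p = 0.076). The Hspb8 probe set averaged 5.07 over all arrays, close to the dim bound, and 2 dimmer probe sets of the gene differed by 0.22 and −0.04 in CA1 and were not called. Cryab, the alpha B-crystallin of glia and a relative of Hspb8, was higher in CA1 of rTg4510 mice (0.97, adjusted p = 0.0106), while Cryaa, the alpha A-crystallin of the lens, was lower (−0.36, adjusted p = 0.0268), which was lost with the Actb ratio (adjusted p = 0.177). In the same comparison 9 of 12 microglial, 8 of 9 astrocyte, 5 of 8 oligodendrocyte, 4 of 9 endothelial and mural and 7 of 10 interneuron markers were higher and all 4 measured CA1 pyramidal markers were lower, and their part in the difference of Hspb8 was not tested. Of the other genes with the prefix, Hspb1, Hspb2, Hspb7 and Hspb11 were called in no comparison. Hspb11 encodes a subunit of the intraflagellar transport machinery and is no small heat shock protein.

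**Figure D2:**
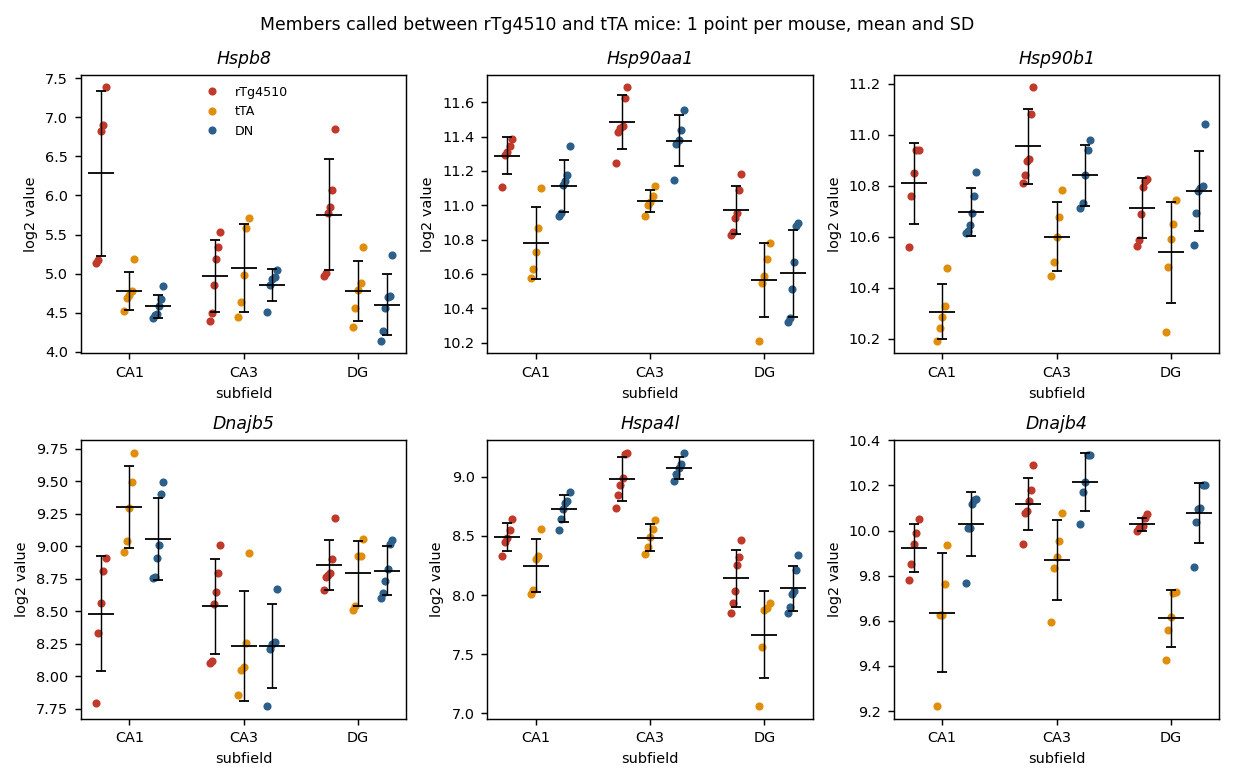
Log2 signal (vertical axis) of 6 members in CA1, CA3 and DG (horizontal axis), 1 point per mouse, with rTg4510 left of tTA and DN mice; horizontal bars are means and error bars are SD. In CA1 the rTg4510 mice of Hsp90aa1 and Hsp90b1 lie above all tTA mice and near the DN mice, while 3 of the 5 rTg4510 mice of Hspb8 lie above every other mouse of CA1.

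In CA1 both HSP90 genes were higher in rTg4510 mice, without overlap with tTA mice, as the plot of signals per mouse shows. Hsp90aa1 (chr12:110691036-110696395), the inducible cytosolic HSP90, had log2 signals of 11.11, 11.29, 11.31, 11.34 and 11.39 in rTg4510 mice, against 10.57, 10.63, 10.73, 10.87 and 11.10 in tTA mice. The difference was 0.51 (SE 0.11, adjusted p = 0.00628). DN mice had 10.94, 11.13 and 11.34 (lowest, median and highest), a range that overlapped with rTg4510 mice and with the highest tTA mouse. In CA3 rTg4510 mice had 11.25, 11.46 and 11.69, against 10.94, 11.00, 11.02, 11.05 and 11.11 in tTA mice, again without overlap (0.46, SE 0.09, adjusted p = 0.0214). This call was lost without rTg4510 mouse4535 (0.43, adjusted p = 0.0509) or tTA mouse4592 (0.44, adjusted p = 0.0503), and in a model of the 2 groups only (adjusted p = 0.0699). In DG the means were 10.97 ± 0.14 (SD, n = 6) in rTg4510 mice and 10.56 ± 0.22 (SD, n = 5) in tTA mice, and the difference of 0.41 was not called (adjusted p = 0.116).

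Hsp90b1 (chr10:86690841-86705444), the HSP90 of the endoplasmic reticulum, had log2 signals in CA1 of 10.56, 10.76, 10.85, 10.94 and 10.94 in rTg4510 mice, against 10.19, 10.24, 10.29, 10.33 and 10.47 in tTA mice. The difference was 0.50 (SE 0.09, adjusted p = 0.00226), and a second probe set of the gene gave 0.45 and was also called. DN mice had 10.61, 10.67 and 10.85, within the range of rTg4510 mice and above every tTA mouse. In CA3 and DG the rTg4510 minus tTA differences of Hsp90b1 were 0.35 (adjusted p = 0.067) and 0.18, neither of them called.

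Set against DN mice, neither HSP90 gene was called in rTg4510 mice in any subfield. For Hsp90aa1 the rTg4510 minus DN difference was 0.18 in CA1 (95% interval −0.04 to 0.39), 0.11 in CA3 (−0.08 to 0.30) and 0.37 in DG (0.12 to 0.62, adjusted p = 0.063). The tTA minus DN difference was −0.33 in CA1 (adjusted p = 0.0361), −0.35 in CA3 (adjusted p = 0.0257) and −0.04 in DG. The CA1 value was no longer called without any 1 of DN mouse4797, mouse4825, mouse4883 and mouse4886 and tTA mouse4570, mouse4592 and mouse4626 (−0.33 to −0.28), and the CA3 value without any 1 of DN mouse4797, mouse4825, mouse4866 and mouse4883 and tTA mouse4592 and mouse4637 (−0.36 to −0.31). The CA1 call was also lost in a model of the 2 groups only (adjusted p = 0.0509) and the CA3 call with the Actb ratio (adjusted p = 0.0605). For Hsp90b1 in CA1 the rTg4510 minus DN difference was 0.11 (95% interval −0.07 to 0.29) and the tTA minus DN difference was −0.39 (SE 0.08, adjusted p = 0.00535). These comparisons share their arrays in pairs, so that the level in tTA mice enters both of the differences that were called.

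Mitochondrial HSP70, Hspa9, which pulls proteins through the inner membrane, was the only member of the HSP70 and HSP110 group called in rTg4510 against tTA mice in CA1. Its log2 signals were 10.05, 10.16, 10.25, 10.26 and 10.29 in rTg4510 mice, against 9.65, 9.83, 9.88, 9.90 and 9.93 in tTA mice, without overlap (0.36, SE 0.08, adjusted p = 0.0063), and 9.86, 9.99 and 10.05 in DN mice. A second probe set of Hspa9 gave 0.21 and was not called. In CA3, Hspa4l, an HSP110 protein best known from testis, had 8.74, 8.96 and 9.20 in rTg4510 mice, against 8.35, 8.40, 8.49, 8.56 and 8.63 in tTA mice. The groups did not overlap (0.50, SE 0.09, adjusted p = 0.0184, but 0.0854 in a model of the 2 groups only), and DN mice, at 8.97 to 9.21, lay over the upper part of the rTg4510 range. A second probe set of Hspa4l gave 0.37 and was not called. The tTA minus DN difference of Hspa4l in CA3 was −0.59 (adjusted p = 0.00172). The constitutive HSP70 of the cytosol, Hspa8, was called in no comparison: its rTg4510 minus tTA difference was 0.09 in CA1 (95% interval −0.04 to 0.23), 0.09 in CA3 (−0.04 to 0.22) and 0.09 in DG (−0.04 to 0.21). Its probe set may also read related transcripts.

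Among the DnaJ genes, 3 were lower in CA1 of rTg4510 than of tTA mice, in a comparison where 4.62% of all probe sets were lower. Dnajb5 (chr4:42949867-42959425), a class B partner of HSP70, had log2 signals of 7.79, 8.33, 8.56, 8.81 and 8.91 in rTg4510 mice, against 8.96, 9.04, 9.30, 9.496 and 9.72 in tTA mice. The groups did not overlap, and DN mice lay across the gap at 8.76, 8.96 and 9.49 (lowest, median and highest). The difference was −0.82 (SE 0.21, adjusted p = 0.0200), and 2 other probe sets of the gene, at −0.60 and −1.61, were called as well. Without rTg4510 mouse4666 it was −0.78 (adjusted p = 0.0502). The call was also lost with the Actb ratio (−0.65, adjusted p = 0.125), in a model of the 2 groups only (adjusted p = 0.0588) and on anti-log values (adjusted p = 0.0521). Against DN mice the difference was −0.57 (adjusted p = 0.04998), and the call was lost without any 1 of DN mouse4797, mouse4806, mouse4883 and mouse4886 and rTg4510 mouse4535, mouse4653 and mouse4666 (−0.60 to −0.40).

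The difference of Dnajb5 between rTg4510 and tTA mice was itself different between subfields. In CA3 the log2 means were 8.54 ± 0.37 in rTg4510 mice (SD, n = 6) and 8.23 ± 0.42 in tTA mice (SD, n = 5), and in DG the rTg4510 values of 8.67, 8.79 and 9.22 overlapped with 8.51, 8.54, 8.92, 8.93 and 9.05 in tTA mice. The CA1 minus CA3 contrast of the genotype differences was −1.11 (SE 0.25, adjusted p = 0.00829), with −0.57 and −1.71 for the other probe sets. In the CA1 minus DG contrast 0 members were higher, 2 were lower and 5.45% of all probe sets passed the test (3.2% higher and 2.25% lower). That contrast of Dnajb5 was −0.87 (SE 0.25, adjusted p = 0.0325), with −0.10 and −1.64 for its other probe sets, of which 1 was called. It was lost without any 1 of 5 mice, namely tTA mouse4580, mouse4592 and mouse4626 and rTg4510 mouse4653 and mouse4666 (−0.87 to −0.70), with array weights (adjusted p = 0.0646) and without the mouse in the model (adjusted p = 0.0562). Hspa1l, a testis-rich HSP70 that was near the dim bound here, gave the other CA1 minus DG contrast, −1.40 (SE 0.42, adjusted p = 0.0364). Its signals in DG were 4.76, 5.21 and 6.25 in rTg4510 mice, against 3.32, 4.31, 4.55, 4.93 and 5.02 in tTA mice, while those in CA1 were 4.04, 4.27, 4.71, 4.79 and 5.24 in rTg4510 mice, against 4.40, 4.66, 4.92, 5.40 and 5.95 in tTA mice. It was not called within either subfield, and the contrast was lost without any 1 of rTg4510 mouse4535, mouse4600, mouse4621 and mouse4666 and tTA mouse4592 and mouse4637 (−1.41 to −1.23), with array weights (adjusted p = 0.064) and without the mouse in the model (adjusted p = 0.0687). In the CA3 minus DG contrast 0 members were called by limma (0.00884% of all probe sets called), and 6 had an unadjusted p below 0.05.

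Dnajc21, a class C protein of ribosome assembly, had log2 signals in CA1 of 4.95, 4.97, 5.18, 5.39 and 5.54 in rTg4510 mice, against 5.40, 5.96, 6.13, 6.14 and 6.29 in tTA mice and 6.17, 6.68 and 6.96 in DN mice. The 3 genotypes followed in that order, with tTA mice overlapping both neighbours at the edges, with −0.78 for rTg4510 against tTA (SE 0.17, adjusted p = 0.00945) and −0.64 for tTA against DN mice (adjusted p = 0.0161). The call of Dnajc21 against tTA mice was lost on anti-log values (adjusted p = 0.0794), and that of tTA against DN mice with the Actb ratio (−0.60, adjusted p = 0.159). The rTg4510 minus DN difference of Dnajc21 was −1.42 (SE 0.17, adjusted p = 1.99e-05). Dnajb1, the heat-inducible HSP40, had 10.34, 10.49, 10.65, 10.70 and 10.81 in CA1 of rTg4510 mice, against 10.82, 10.89, 10.93, 10.97 and 10.99 in tTA mice and 10.75, 11.00 and 11.08 in DN mice. All rTg4510 mice lay below all tTA mice (−0.32, SE 0.09, adjusted p = 0.0333), and the dim second probe set of Dnajb1 gave −0.71 and was called. The call for Dnajb1 was lost without any 1 of rTg4510 mouse4535 and mouse4666 and tTA mouse4580, mouse4592, mouse4626 and mouse4637 (−0.33 to −0.26), with the Actb ratio (adjusted p = 0.122), with array weights (adjusted p = 0.0702) and in a model of the 2 groups only (adjusted p = 0.0983). In DG 1 DnaJ gene was called, Dnajb4, a heat-inducible relative of Dnajb1: it had 9.997, 10.02 and 10.07 in rTg4510 mice, against 9.43, 9.56, 9.62, 9.72 and 9.73 in tTA mice. These did not overlap (0.42, SE 0.08, adjusted p = 0.0245), and DN mice had 9.84, 10.10 and 10.20 on both sides of the rTg4510 mice. A second probe set of Dnajb4 differed by 0.08 and was not called. The call for Dnajb4 was lost without rTg4510 mouse4535 (0.41, adjusted p = 0.061), rTg4510 mouse4666 (0.42, adjusted p = 0.0531) or tTA mouse4637 (0.42, adjusted p = 0.0545), and in a model of the 2 groups only (adjusted p = 0.10).

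Cct8, the theta subunit of the CCT ring, was the only ring gene called in rTg4510 against tTA mice. Its log2 signals in CA1 were 8.50, 8.62, 8.87, 9.11 and 9.11 in rTg4510 mice, against 8.09, 8.37, 8.47, 8.48 and 8.59 in tTA mice and 8.81, 8.95 and 9.23 in DN mice. The difference of 0.44 (SE 0.13, adjusted p = 0.0377) had overlapping groups and was lost without any 1 of rTg4510 mouse4600, mouse4653 and mouse4666 and tTA mouse4580, mouse4592, mouse4626 and mouse4637 (0.36 to 0.46). It was also lost with the Actb ratio (0.39, adjusted p = 0.156), in a model of the 2 groups only (adjusted p = 0.117) and in the least significant difference test on log2 (adjusted p = 0.055) and anti-log values (adjusted p = 0.0755). A dim second probe set of Cct8 differed by −0.03.

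Between tTA and DN mice more members were called, and most of them were lower in tTA mice. In CA1, 3 members were higher and 14 were lower, where 16.2% of all probe sets passed the test (7.31% higher and 8.85% lower). In CA3, 1 was higher and 7 were lower, where 9.09% were called (4.12% higher and 4.97% lower), and in DG 4 were higher and 12 were lower, where 16.7% were called (7.22% higher and 9.44% lower). The median difference of the members was −0.10, −0.14 and −0.17, against 0.05, 0.03 and 0.03 over all probe sets. With 57 of the 67 members above the dim bound, the members were brighter than the probe sets of that background. Of the called members, 8 of 17 in CA1, 7 of 8 in CA3 and 11 of 16 in DG had groups that did not overlap. Over all probe sets, 61.5%, 73.2% and 56% of those called did not overlap, which is 9.94%, 6.65% and 9.33% of those tested. Microglial markers were higher in tTA mice in 4, 8 and 8 of 12 cases and astrocyte markers in 5, 5 and 8 of 9. The Actb ratio also moved with genotype. On the log2 scale its means were −0.477, −0.698 and −0.373 in rTg4510, tTA and DN mice in CA1, −0.633, −0.636 and −0.453 in CA3, and −0.517, −0.609 and −0.299 in DG. With this ratio in the model, 3.83%, 4.79% and 5.59% of all probe sets were called, and 4 of the 17 member calls remained in CA1, 2 of 8 in CA3 and 5 of 16 in DG. They were Hsp90aa1, Hsp90b1, Hspa4l and Hspa5 in CA1, Hspa4l and Hspa5 in CA3, and Dnajb4, Dnajb6, Hspa2, Hspa5 and Hsph1 in DG. The part of the glial markers was not tested.

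Hspa5 (chr2:34772090-34776529), the HSP70 of the endoplasmic reticulum known as BiP, was the member that separated both transgenic groups from DN mice in every subfield. In CA1 its log2 signals were 10.04, 10.11, 10.12, 10.14 and 10.42 in rTg4510 mice, 9.44, 9.88, 9.94, 9.97 and 10.08 in tTA mice and 10.48, 10.57 and 10.62 (lowest, median and highest) in DN mice. In CA3 they were 9.96, 10.22 and 10.51 in rTg4510 mice, 10.10, 10.12, 10.19, 10.20 and 10.24 in tTA mice and 10.59, 10.61, 10.69, 10.77 and 10.78 in DN mice. In DG they were 9.93, 10.09 and 10.17 in rTg4510 mice, 9.72, 9.87, 10.06, 10.25 and 10.30 in tTA mice and 10.68, 10.73 and 10.81 in DN mice. In all 3 subfields every DN mouse lay above every mouse with a transgene. The tTA minus DN differences of Hspa5 were −0.71 (SE 0.10, adjusted p = 0.000376) in CA1, −0.52 (SE 0.09, adjusted p = 0.00343) in CA3 and −0.70 (SE 0.09, adjusted p = 0.000109) in DG. A second probe set gave −0.78, −0.63 and −0.75 and was called each time. The rTg4510 minus DN differences of Hspa5, which share the DN arrays, were −0.40 (adjusted p = 0.00907), −0.49 (adjusted p = 0.00778) and −0.66 (adjusted p = 0.000142). Hspa5 was called in these 6 comparisons also with the Actb ratio in the model and without any 1 mouse.

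**Figure D3:**
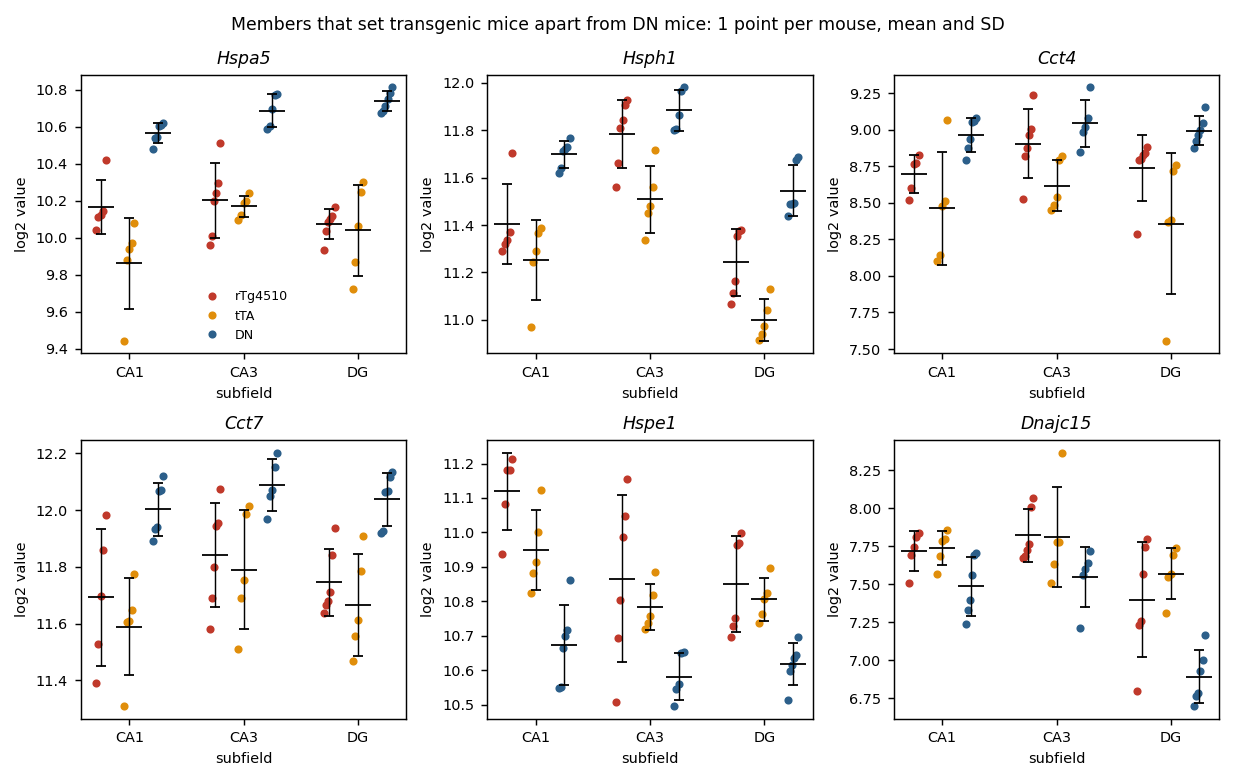
Log2 signal (vertical axis) of 6 members in CA1, CA3 and DG (horizontal axis), 1 point per mouse, with rTg4510 left of tTA and DN mice; horizontal bars are means and error bars are SD. For Hspa5 all DN mice lie above all rTg4510 and tTA mice in each subfield, and for Hspe1 and Dnajc15 the DN means are the lowest.

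The plot of members by genotype shows the same order for Hsph1 (chr5:149616843-149636498), the HSP110 exchange factor of the cytosol, in CA1 apart from rTg4510 mouse4600. In CA1 its signals were 11.29, 11.32, 11.34, 11.37 and 11.70 in rTg4510 mice, 10.97, 11.24, 11.29, 11.37 and 11.39 in tTA mice and 11.62, 11.72 and 11.77 in DN mice. In DG they were 11.07, 11.26 and 11.38 in rTg4510 mice, 10.91, 10.94, 10.97, 11.04 and 11.13 in tTA mice and 11.44, 11.49 and 11.69 in DN mice, and DN mice did not overlap with either group. The tTA minus DN differences of Hsph1 were −0.45 (adjusted p = 0.00385) in CA1, −0.37 (adjusted p = 0.0169) in CA3 and −0.54 (adjusted p = 0.000276) in DG, and the CA3 call was lost without DN mouse4866 (−0.35, adjusted p = 0.0513). With the Actb ratio the CA1 call (still −0.45, adjusted p = 0.055) and the CA3 call (adjusted p = 0.0655) of Hsph1 were lost and the DG call remained. The inducible cytosolic HSP70, Hspa1b, whose probe sets cannot be told apart from the near-identical Hspa1a, had 7.27, 7.48, 7.68, 7.71 and 7.75 in CA1 of rTg4510 mice, 7.47, 7.52, 7.76, 8.27 and 8.30 in tTA mice and 8.13, 8.39 and 8.83 in DN mice. All rTg4510 mice lay below all DN mice, and tTA mice overlapped with both. The rTg4510 minus DN difference of Hspa1b was −0.88 (SE 0.17, adjusted p = 0.0012) and its other probe sets gave −1.06 and −0.86. Hspa2, an HSP70 of testis and brain, had 10.10, 10.23 and 10.30 in DG of rTg4510 mice, 9.75, 10.06, 10.16, 10.26 and 10.35 in tTA mice and 10.39, 10.74 and 10.80 in DN mice. Every DN mouse was above both transgenic groups, with −0.43 for rTg4510 (adjusted p = 0.0132) and −0.53 for tTA mice (adjusted p = 0.00266).

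Of the 8 CCT ring genes, 4 (CA1), 2 (CA3) and 5 (DG) were called lower in tTA than in DN mice, and 0 higher. The median difference of the ring genes was −0.33, −0.26 and −0.31. The matching background was 8.85%, 4.97% and 9.44% of probe sets lower, with medians of 0.05, 0.03 and 0.03. With a median level of 10.26 and 1 dim gene, the ring was brighter than that background, and a difference from it was not tested. None of the ring calls remained with the Actb ratio in the model. Their adjusted p was then 0.0876 to 0.277 in CA1, 0.113 to 0.122 in CA3 and 0.067 to 0.281 in DG. The CA1 differences with the ratio were −0.60 (Cct4), −0.21 (Cct6a), −0.34 (Cct7) and −0.51 (Cct8). Without it they were −0.50, −0.28, −0.41 and −0.59. In CA3 Cct4 had −0.40 and Cct8 −0.43 with the ratio, against −0.43 and −0.45 without it. The ratio itself moved with genotype, and its part was not separated from that of the genotype. Cct4, the delta subunit, had log2 signals in DG of 7.56, 8.37, 8.38, 8.72 and 8.76 in tTA mice, against 8.88, 8.98 and 9.16 (lowest, median and highest) in DN mice. The groups did not overlap, and the differences of Cct4 were −0.50 in CA1, −0.43 in CA3 and −0.64 in DG. The CA1 call of Cct4 was lost without tTA mouse4570 (−0.43, adjusted p = 0.0544) or mouse4592 (−0.42, adjusted p = 0.0596), and the CA3 call without any 1 of DN mouse4797, mouse4866, mouse4883 and mouse4886 and tTA mouse4570, mouse4592 and mouse4637 (−0.44 to −0.37). Cct8 differed by −0.59 (adjusted p = 0.0047), −0.45 (adjusted p = 0.0383) and −0.59 (adjusted p = 0.003), but its dim second probe set by 0.01, 0.03 and 0.06. The CA3 call of Cct8 was lost without any 1 of DN mouse4797, mouse4825, mouse4866 and mouse4883 and tTA mouse4570, mouse4592 and mouse4637 (−0.48 to −0.40). Cct7 was lower in CA1 (−0.41) and DG (−0.37) of tTA mice, and in CA1 (−0.31) and DG (−0.29) of rTg4510 mice against DN mice. Each of the rTg4510 calls of Cct7 was lost without any 1 of 8 mice, all but DN mouse4883 and rTg4510 mouse4600 and mouse4653 in CA1 and all but DN mouse4866 and mouse4886 and rTg4510 mouse4621 and mouse4653 in DG (−0.33 to −0.24 and −0.29 to −0.27), and with the Actb ratio (adjusted p = 0.0839 and 0.143). Tcp1, the alpha subunit of the same ring, which the symbol rule leaves out, was lower in tTA than in DN mice by −0.44, −0.33 and −0.32 and was called each time, but with the Actb ratio in CA1 alone (adjusted p = 0.0147, 0.133 and 0.15). Cct6b, the testis paralog of Cct6a, was dim and called in no comparison.

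Hspe1 and 2 mitochondrial J genes, Dnajc15 and Dnajc19, had calls higher than in DN mice, and none of those of tTA mice remained with the Actb ratio. Hspe1 had log2 signals in CA1 of 10.94, 11.08, 11.18, 11.18 and 11.21 in rTg4510 mice, 10.82, 10.88, 10.91, 11.00 and 11.12 in tTA mice and 10.55, 10.68 and 10.86 in DN mice. Every rTg4510 mouse lay above every DN mouse (0.45, SE 0.08, adjusted p = 0.000813), and tTA mice overlapped with both (0.28). The tTA call of Hspe1 was lost without any 1 of DN mouse4806, mouse4825 and mouse4886 and tTA mouse4580 and mouse4637 (0.23 to 0.27), and it was 0.24 with the Actb ratio (adjusted p = 0.246). Dnajc15, a J protein of the inner mitochondrial membrane, had signals in DG of 6.80, 7.41 and 7.80 in rTg4510 mice, 7.31, 7.55, 7.57, 7.69 and 7.74 in tTA mice and 6.70, 6.86 and 7.16 in DN mice. All tTA mice were above all DN mice (0.68, adjusted p = 0.00552), and rTg4510 mice overlapped with both (0.51). That rTg4510 call of Dnajc15 was lost without any 1 of 8 mice, all but DN mouse4806 and rTg4510 mouse4535, mouse4621 and mouse4653 (0.43 to 0.53). With the Actb ratio the Dnajc15 differences were 0.38 in rTg4510 mice (adjusted p = 0.242) and 0.498 in tTA mice (adjusted p = 0.155). Dnajc19, a J protein of the mitochondrial import motor, was higher in tTA than in DN mice by 0.83, 0.60 and 0.67, but its dim second probe set gave −0.06, −0.66 and −0.54 and was called lower in CA3. The CA3 call of Dnajc19 was lost without any 1 mouse other than DN mouse4886 and tTA mouse4580 (0.54 to 0.64), and with the Actb ratio Dnajc19 had 0.55, 0.61 and 0.48 (adjusted p = 0.202, 0.0913 and 0.140). The members were also grouped by place after these values had been seen. Of 7 mitochondrial members, 2, 1 and 2 were higher in tTA than in DN mice in CA1, CA3 and DG and 0 were lower. Their median differences were −0.02, −0.13 and −0.14. Of 7 members of the lumen of the endoplasmic reticulum, 3, 1 and 3 were lower and 0 were higher. Of all probe sets, 7.31%, 4.12% and 7.22% were higher and 8.85%, 4.97% and 9.44% were lower. Whether either place differs from that background was not tested. Of the reticulum calls, Dnajb11 in CA1 and Dnajc3 and Dnajc10 in DG were lost with the Actb ratio.

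Against DN mice, rTg4510 mice had 6 members higher and 12 lower in CA1, where 23.4% of all probe sets passed the test (11.1% higher and 12.3% lower). They had 0 higher and 2 lower in CA3, where 3.12% were called (1.91% higher and 1.2% lower), and 3 higher and 9 lower in DG, where 8.86% were called (4.1% higher and 4.76% lower). The median difference of the members was −0.11, −0.06 and −0.06, against 0.02, 0.01 and 0.01 over all probe sets. Besides the genes described, Hspa12b, a distant HSP70 of endothelial cells, had 4.98, 5.53, 5.71, 6.11 and 6.11 in CA1 of rTg4510 mice, against 4.53, 4.81 and 5.13 in DN mice. The groups overlapped in 1 rTg4510 mouse, and the difference was 0.86 (adjusted p = 0.0170, but 0.0502 on anti-log values). Dnajb2, a neuronal J protein, was higher by 0.42. Dnajc3, an inhibitor of translation kinases in the endoplasmic reticulum, was lower by −0.52, and Dnajc13, which acts on endosomes, by −0.57. The 4 other probe sets of Dnajc3 gave 0.03, −0.49, −0.03 and −0.18, of which 1 was called. The Dnajc13 call was lost without rTg4510 mouse4666 (−0.45, adjusted p = 0.0588). In DG, Dnajc11, of the mitochondrial contact site, was lower by −0.58 and Dnaja3, the J partner of mitochondrial HSP70, by −0.49, which was lost without DN mouse4797 (−0.45, adjusted p = 0.0512). Both calls were lost with the Actb ratio, at −0.37 for Dnajc11 (adjusted p = 0.215) and −0.43 for Dnaja3 (adjusted p = 0.121), and 2 other probe sets of Dnaja3 gave −0.03 and 0.01. Of the 12 calls in DG, those of Hspa2 and Hspa5 remained with the ratio, where 4.51% of all probe sets were called in place of 8.86%.

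**Figure D4:**
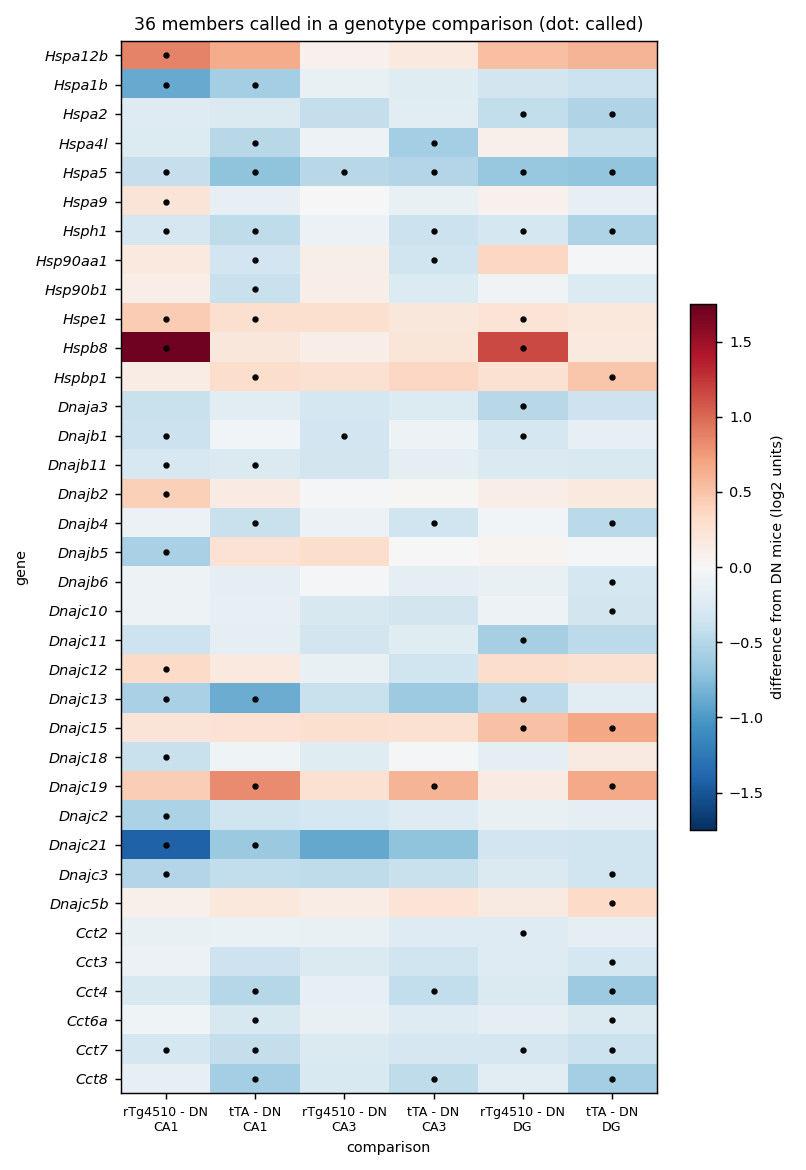
Log2 difference (colour scale) from DN mice of the 36 members called in at least 1 genotype comparison (rows), with rTg4510 and tTA mice side by side in CA1, CA3 and DG (columns); a dot marks an adjusted p below 0.05. Hspa5 is lower with a dot in all 6 columns, and Hspb8 is higher with a dot in rTg4510 mice in CA1 and DG, of which the DG call was lost with the Actb ratio.

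The map of differences from DN mice holds the 36 members called in any genotype comparison, of which 10 were called in rTg4510 against tTA, 23 in rTg4510 against DN and 24 in tTA against DN mice. Hspa5 is the only row marked in all 6 columns. Counting the subfield comparisons as well, 21 of the 67 members were called nowhere, among them Hspa8, Hspa4, Dnaja1, Dnaja4 and Hspb1.

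Partners of the chaperones that the symbol rule leaves out were read from gene lists. Of the 29 measured co-chaperones of HSP70 and HSP90, 2, 1 and 0 were lower in CA1, CA3 and DG of rTg4510 mice than of tTA mice, and 0 were higher. These are 6.9%, 3.45% and 0% of the list, against 10.6%, 1.13% and 0.782% of all probe sets. Fkbp8, a mitochondrial HSP90 partner, differed by −0.73 in CA1 and −0.45 in CA3, and Bag5, a nucleotide exchange factor, by −0.40 in CA1. Between tTA and DN mice 2, 2 and 2 co-chaperones were higher and 5, 0 and 3 were lower (24.1%, 6.9% and 17.2%, against 16.2%, 9.09% and 16.7% of all probe sets), with Ppp5c, a phosphatase on HSP90, higher by 0.52, 0.58 and 0.80 and Bag3, the partner of Hspb8, lower by −0.71 in CA1. With the Actb ratio the Bag3 call (adjusted p = 0.237) and the CA1 and DG calls of Ppp5c (adjusted p = 0.412 and 0.0711) were lost. In DG Fkbp5, an HSP90 partner of the glucocorticoid receptor, was lower in rTg4510 mice (−0.88) and in tTA mice (−0.83) than in DN mice.

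Of 13 prefoldin and CCT partners, 5, 1 and 3 were higher and 2, 1 and 1 lower in tTA than in DN mice. That is 53.8%, 15.4% and 30.8% of them, against 16.2%, 9.09% and 16.7% of all probe sets. Pfdn1, a prefoldin subunit, was higher by 0.60, 0.55 and 0.74. Pfdn1 was lower in CA1 of rTg4510 than of tTA mice (−0.46), and all 4 calls of Pfdn1 were lost with the Actb ratio (adjusted p = 0.0699, 0.198, 0.0936 and 0.0900). Of 16 genes for folding in the endoplasmic reticulum, 1, 0 and 0 were higher and 1, 4 and 4 lower in tTA than in DN mice (12.5%, 25% and 25%, against the same 16.2%, 9.09% and 16.7%). Atf6, the membrane-bound sensor whose released part binds the element found in the Hspa5 promoter, was lower by −1.32, −0.97 and −1.04, and was called with the Actb ratio as well. In CA1 of rTg4510 against tTA mice, Creld2 (−0.79) and the transcription factor Xbp1 (−0.90) were lower, of which Xbp1 was lost with the Actb ratio (adjusted p = 0.182). The measured heat shock factors, Hsf2 and Hsf4, were called in 0 of the 9 genotype comparisons by limma, and 2 of their tests, both of Hsf4, had an unadjusted p below 0.05. The lower of these belonged to CA3 of rTg4510 against tTA mice (0.26, adjusted p = 0.0994).

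Single members differed between subfields of DN mice, and whether their share departs from the background was not tested. In CA1 against CA3, 3 members were higher and 5 lower, which is 11.9% of the 67. There 12.9% of all probe sets passed the test (6.26% higher and 6.64% lower). In CA1 against DG 10 were higher and 4 lower (20.9%), where 17.5% were called (8.89% higher and 8.59% lower). In CA3 against DG 12 were higher and 6 lower (26.9%), where 21.7% were called (11.3% higher and 10.4% lower). Groups did not overlap for 6 of 8, 10 of 14 and 14 of 18 of them, against 77.9%, 63% and 71.7% of all probe sets called, or 10.1%, 11% and 15.6% of those tested. Hspa4l had its highest signals in CA3, at 8.97, 9.02, 9.08, 9.11 and 9.21, next to 8.55, 8.76 and 8.87 in CA1 and 7.85, 8.02 and 8.34 in DG (lowest, median and highest), with no overlap among the 3 subfields. The CA3 minus DG difference of Hspa4l was 1.02 (SE 0.12, adjusted p = 1.34e-09), while the CA1 minus CA3 difference of −0.35 was lost without any 1 of DN mouse4797, mouse4825, mouse4866 and mouse4886 (−0.37 to −0.30). Hsp90aa1 was also lower in DG, with 10.94, 11.13 and 11.34 in CA1, 11.15, 11.36, 11.38, 11.44 and 11.56 in CA3 and 10.32, 10.59 and 10.89 in DG. CA1 and CA3 overlapped, and DG lay below both, by 0.51 from CA1 (adjusted p = 5.01e-05) and 0.77 from CA3 (adjusted p = 3.94e-08).

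The opposite gradient, higher in DG than in both CA1 and CA3, was called for Hspa2, Dnajc9 and Cct5. Calls of Dnajc9 and Cct5 were in part lost when 1 mouse was left out. Hspa2 had 9.52, 9.73 and 9.86 in CA1, 9.57, 9.75, 9.75, 9.78 and 10.002 in CA3 and 10.39, 10.74 and 10.80 in DG. Every DG value was above every value of the pyramidal layers, with a CA1 minus DG difference of −0.94 (SE 0.11, adjusted p = 3.34e-09) and a CA3 minus DG difference of −0.88 (adjusted p = 5.32e-08). Dnajc5, the cysteine string protein of synaptic vesicles, had 8.88, 9.06 and 9.18 in CA1, 9.47, 9.51, 9.54, 9.60 and 9.61 in CA3 and 8.91, 9.01 and 9.11 in DG. CA3 stood above both other subfields, by 0.50 from CA1 (CA1 minus CA3 −0.50, adjusted p = 8.77e-06) and 0.54 from DG (adjusted p = 1.24e-06). Dnajc9, a J protein and histone chaperone, had 7.71, 7.75 and 7.88 in CA1, 7.25, 7.41, 7.43, 7.45 and 7.48 in CA3 and 7.95, 8.10 and 8.28 in DG, a separate range in each subfield. Its CA3 minus DG difference was −0.71 (adjusted p = 5.15e-07). Dnajc21 was lower in DG than in CA1 by 1.38 (adjusted p = 1.37e-07) and than in CA3 by 0.96. Its mean was higher in CA1 than in CA3, but that difference was not called. Dnajb5 was 0.83 higher in CA1 than in CA3 (adjusted p = 0.000486).

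**Figure D5:**
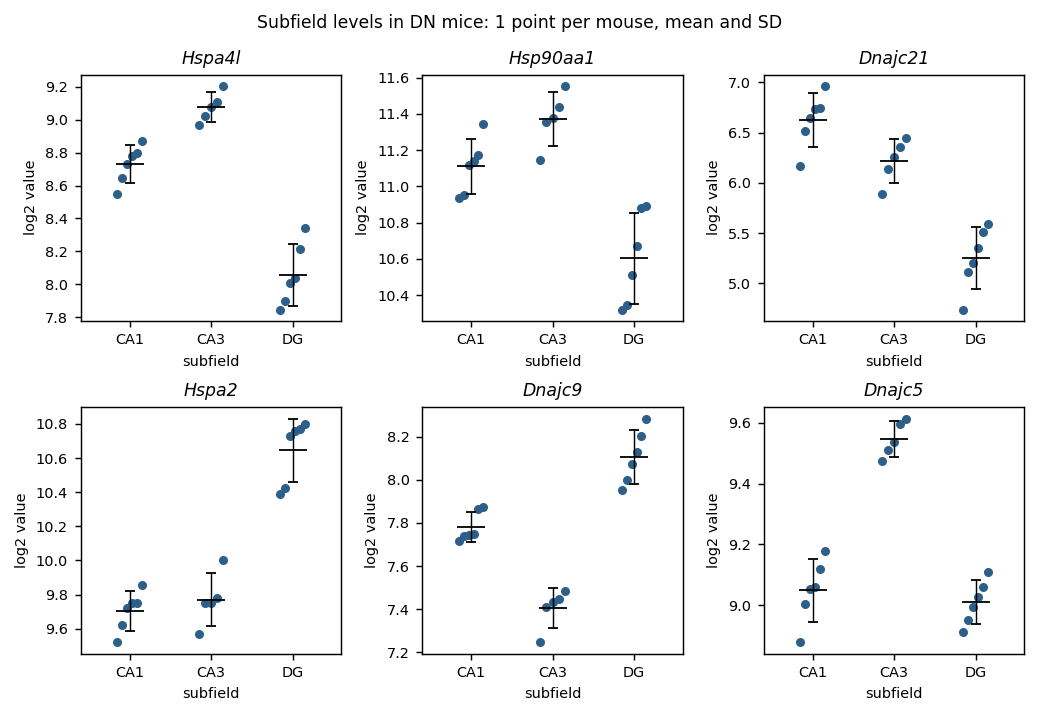
Log2 signal (vertical axis) of 6 members in CA1, CA3 and DG of DN mice (horizontal axis), 1 point per mouse, with means and SD. Hspa4l, Hsp90aa1 and Dnajc21 are lowest in DG, Hspa2 and Dnajc9 are highest there, and Dnajc5 is highest in CA3.

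The plot of subfield levels puts these 6 genes side by side, each on its own scale. The subfields came from the same DN mice, 5 of which gave a CA3 array, and the mouse was kept in the model as a random block.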

How the data were processed

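Total RNA of laser-captured layers was amplified, labelled and hybridised to Affymetrix 3′ arrays by the authors, and the deposited table holds 1 log2 value per probe set and array, made with RMA according to the submitters' processing notes. RMA forces the arrays onto a common distribution, so a shift of all transcripts together is not visible, and differences of dim probe sets are understated. The base of the logarithm was settled from the range, 1.944 to 13.826, whose upper end is 14522 in base 2. Precision is limited by the number of arrays, which have no read depth. There were 22716 probe sets, and 90 controls were left out. Of the other 22626, 18003 had 1 gene symbol in the platform annotation.

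Values were used as deposited. In R 4.3.3 with limma 3.58.1, a model of the 3 genotypes was fitted within each subfield to all probe sets, with Benjamini-Hochberg adjustment over all of them, a threshold of 0.05 and no minimum fold, after the 1-way model of the study's methods. Contrasts between subfields came from 1 model of 49 arrays with the mouse as a random block (within-mouse correlation 0.117). The mouse number in the titles pairs these arrays: over 47 pairs of arrays of 1 mouse the median correlation of deviations was 0.119 (−0.148 to 0.323, 27 pairs above 0.1), against −0.0118 for different mice. SD is over mice, and no 2 arrays held identical values.

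Genes were named where called in rTg4510 against tTA mice, as the 6 largest calls in each direction elsewhere, or from a fixed list of well-known chaperones; others named in a family or a place were chosen after their values were seen. The members and lists were chosen with earlier results of these data known. Alternatives were quantile normalization, array weights, dim probe sets left out, only the 2 groups compared, least significant difference tests on log2 and anti-log values, any probe set of a gene, the Actb 3′ to 5′ ratio as covariate, the mouse block, and leaving out each mouse. A model of all arrays without the mouse was added after the data had been seen. Positions and promoters are from RefSeq, GRCm38.p6. A search of protein sequences had been planned and was not run.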

Additional observations from a re-analysis of the deposited data

Results flagged for a closer look

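The genotype difference between rTg4510 and tTA mice differed between subfields for 3 members, by a test of the difference itself. Dnajb5 had a CA1 minus CA3 contrast of −1.11 and a CA1 minus DG contrast of −0.87, Hspb8 a CA1 minus CA3 contrast of 1.59 and Hspa1l a CA1 minus DG contrast of −1.40 on the log2 scale. Both CA1 minus DG contrasts were lost with array weights, without the mouse in the model and without any 1 of several mice, and the contrast of Hspb8 without any 1 of 3 mice. The CA1 minus CA3 contrast of Dnajb5 was called under each of these. For the CA1 minus DG contrast the other probe sets of Dnajb5 gave −0.10 and −1.64, of which 1 was called.

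Single mice stood away from their group in 15 of the 279 groups examined over 31 named genes, by Dixon's test at the 95% level, where chance alone flags about 1 in 20 groups. Among rTg4510 mice, Cct4 was low in DG of mouse4600 (8.28, with the others at 8.80 to 8.88) and Cct2 was high in CA3 of mouse4653 (11.35, others 11.09 to 11.15). In CA1 of rTg4510 mice, Dnajb6 was low in mouse4535 (10.47, others 10.53 to 10.56), Hsph1 was high in mouse4600 (11.70, others 11.29 to 11.37), Hspa5 was high in mouse4666 (10.42, others 10.04 to 10.14) and Dnajc2 was high in mouse4549 (9.07, others 8.84 to 8.90). Among tTA mice, mouse4570 had high Dnajb1 (10.85, others 10.63 to 10.66) and low Dnajb2 (8.92, others 9.39 to 9.56) in CA3 and high Hspa2 in CA1 (9.75, others 9.30 to 9.42), and mouse4592 had high Dnajc5b in CA1 (4.47, others 3.98 to 4.02), where the gene is dim. Among DN mice, Cct2 was low in DG of mouse4886 (11.23, others 11.36 to 11.41), Cct8 was high in DG of mouse4825 (9.22, others 8.95 to 9.02), Dnajb4 was low in CA1 of mouse4806 (9.77, others 10.01 to 10.14), Dnajc12 was high in CA3 of mouse4883 (6.25, others 5.90 to 5.98) and Hspa1l was high in CA1 of mouse4797 (5.94, others 4.86 to 5.17).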

How the results depend on the processing

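Of the 128 calls of members over all comparisons, 0 reversed, 64 remained when any 1 mouse was left out and 65 remained under every other alternative run. For rTg4510 against tTA mice the latter were 3 of 8, 0 of 2 and 0 of 1 in CA1, CA3 and DG. They were 12 of 18, 1 of 2 and 2 of 12 for rTg4510 against DN and 3 of 17, 2 of 8 and 5 of 16 for tTA against DN mice. Between subfields of DN mice they were 6 of 8, 13 of 14 and 16 of 18. There the Actb ratio, the model of 2 groups and the least significant difference tests were not run. In CA1 of rTg4510 against tTA mice the calls of Hsp90aa1, Hsp90b1 and Hspa9 remained throughout. Hspb8 there was lost in a model of the 2 groups only (adjusted p = 0.0683) and in the anti-log test (adjusted p = 0.0656). The cause of the changes below was not tested. The models of 2 groups hold fewer arrays, and the part of this was not tested either.

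For rTg4510 against tTA mice, the 8 members called in CA1 became 13 with any probe set of a gene, 4 in the model of 2 groups, 4 in the least significant difference test on anti-log values and 5 with the Actb ratio, the 2 in CA3 became 0 in the model of 2 groups, and the 1 in DG became 0 in the model of 2 groups. For rTg4510 against DN mice, the 2 in CA3 became 1 after quantile normalization, in the model of 2 groups, in the least significant difference test on log2 values and with the Actb ratio, and 6 with array weights, and the 12 in DG became 2 with the Actb ratio. For tTA against DN mice, the Actb ratio gave 4 in place of 17 in CA1, 4 in place of 8 in CA3 and 5 in place of 16 in DG, and any probe set gave 13 in CA3. Array weights called 0 members in the CA1 minus DG contrast, and 19, 23 and 29 in place of 8, 14 and 18 between subfields of DN mice. Of all probe sets, the Actb ratio left 5.8% called in place of 10.6% in CA1 for rTg4510 against tTA mice. For rTg4510 against DN mice it left 1.22% in place of 3.12% in CA3 and 4.51% in place of 8.86% in DG. For tTA against DN mice it left 3.83%, 4.79% and 5.59% in place of 16.2%, 9.09% and 16.7%. Shares under the other settings, here and below, are not given, so those counts stand without a background.

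A replicate block for the mouse needs 1 model of all arrays, which pools the subfields as well. It gave 4 members in DG for rTg4510 against tTA, 6 in CA3 for rTg4510 against DN, and 14 in CA3 and 25 in DG for tTA against DN mice. The same model without the block, added after the data had been seen, gave 4, 6, 12 and 25, which differs from the model with the block in the third count alone. Without the block, the CA1 minus DG contrast had 0. The other counts stayed within 1.5 times.

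Leaving out 1 mouse at a time gave 5 to 9, 1 to 3 and 0 to 3 members in CA1, CA3 and DG for rTg4510 against tTA, 12 to 18, 1 to 2 and 5 to 12 for rTg4510 against DN, and 13 to 17, 2 to 10 and 12 to 18 for tTA against DN mice. The contrasts CA1 minus CA3, CA1 minus DG and CA3 minus DG gave 1 to 2, 0 to 4 and 0 to 0, and the comparisons of CA1 with CA3, CA1 with DG and CA3 with DG in DN mice gave 4 to 7, 10 to 11 and 13 to 16. Without tTA mouse4592, whose CA1 array spread most, 7 members were called in CA1 for rTg4510 against tTA and 13 for tTA against DN mice.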
